A study of Mus musculus with 8 samples.

Results

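Lacun3 is a mouse lung adenocarcinoma cell line, and the genes described here are 6 secreted factors that act on neutrophils: Cxcl1, Cxcl2, Cxcl3, Cxcl5, Cxcl15 and Csf3. They were taken by symbol from a table of raw counts for 56884 annotated genes, in which each of the 6 had a single row, and 5 of the 6 had enough counts to be tested beside 13707 tested genes in all. The STK11 KO group held 4 libraries from Lacun3 cells in which Stk11 had been disrupted by CRISPR, and STK11 WT held 4 libraries from the parental Lacun3 cells. Stk11 encodes LKB1, a tumour suppressor kinase. Both groups were untreated, grew in the same medium and were harvested in logarithmic growth, and the labels call the libraries of a genotype biological replicates. Whether the knockout line was 1 clone or a pool, and whether the parental cells had passed through a CRISPR procedure, is stated in none of the sources used here, so that the loss of Stk11 and a difference between lines cannot be told apart. The series asks which transcripts change in the tumour cells themselves when Stk11 is lost.

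CXC chemokines with a Glu-Leu-Arg motif draw neutrophils out of the blood through the receptor CXCR2. Cxcl1 (also called KC), Cxcl2 (MIP-2), Cxcl3 and Cxcl5 (LIX) are mouse genes of this kind, and their transcription is known to rise quickly after IL-1, TNF, IL-17 or Toll-like receptor signalling through NF-kB. Cxcl15, or lungkine, is a mouse chemokine of the lung epithelium. Csf3 encodes G-CSF, the growth factor that drives the production of neutrophils in the bone marrow and their release from it. Their messenger RNAs are short-lived, and AU-rich elements in the 3′ untranslated region, read by proteins such as TTP (Zfp36) and Regnase-1 (Zc3h12a), are known to speed their decay.

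The libraries held 21441601 to 25715008 counts in STK11 KO and 18837263 to 21101904 in STK11 WT, so that 1 count was worth 0.0388 to 0.0515 CPM (counts per 1e6 reads, scaled by TMM). The totals did not overlap between the groups (exact permutation test, two-sided p = 0.0286, the smallest that 4 against 4 libraries allow). Mitochondrial genes took 1.57% ± 0.262 of counts in STK11 KO and 2.09% ± 0.155 in STK11 WT (SD, n = 4 each; two-sided p = 0.0571 by an exact permutation test). The part of either difference in the results was not tested. STK11 KO replicate 3 stood apart from the other STK11 KO libraries: the chi-square of counts per degree of freedom was 14.2 to 20.7 for its 3 pairs and at most 9.62 for every other pair within a group. Stk11 mRNA averaged 34.7 ± 0.853 CPM in STK11 KO and 66.3 ± 1.79 CPM in STK11 WT (SD, n = 4 each), so the targeted gene was lower in every library labelled STK11 KO, with part of its transcript remaining.

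Transcripts of Csf3, Cxcl2, Cxcl3 and Cxcl1 were 2.56-fold to 5.21-fold higher in STK11 KO than in STK11 WT cells, Cxcl5 was 1.15-fold higher, and Cxcl15 was barely detected in either. All 5 tested genes rose at an edgeR quasi-likelihood adjusted p under 0.05, and in the same comparison 34.4% of all tested genes rose. A rise of at least 2-fold was called for 4 of the 5, against 7.02% of all tested genes. In all 5 the lowest STK11 KO library lay above the highest STK11 WT library, which was so for 30.5% of tested genes. The cultures were sampled in bulk, so more cells making a transcript and more transcript per cell cannot be told apart.

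Csf3 (ENSMUSG00000038067.3), the G-CSF gene, lies on the plus strand at chr11:98592089-98594455 in GRCm39, the build of the count table. Its levels were 602, 481, 446 and 507 CPM in STK11 KO replicates 1 to 4, against 93.3, 98.4, 99.7 and 99.6 CPM in STK11 WT replicates 1 to 4. The STK11 WT libraries lay within a few CPM of each other, whereas those of STK11 KO spread more widely, with replicate 1 the highest. Csf3 averaged 509 ± 66.9 CPM in STK11 KO and 97.7 ± 3.02 CPM in STK11 WT (SD, n = 4 each). The fitted log2 fold change was 2.38 ± 0.07 (SE; edgeR adjusted p = 2.05e-17), or 5.21-fold with a 95% interval of 4.68 to 5.79. Of the tested genes, 206 (1.5%, Csf3 included) rose at least as much.

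Cxcl2 (ENSMUSG00000058427.11; chr5:91051730-91053797, plus strand), the MIP-2 gene, had the fewest counts for its length among the 5 tested genes. It had 148, 139.9, 134 and 139 CPM in STK11 KO replicates 1 to 4, against 43.0, 39.8, 35.7 and 36.1 CPM in STK11 WT. Every STK11 KO library was far above every STK11 WT library. Cxcl2 averaged 140.3 ± 5.87 CPM in STK11 KO and 38.6 ± 3.46 CPM in STK11 WT (SD, n = 4 each), a log2 fold change of 1.86 ± 0.06 (SE; edgeR adjusted p = 6.15e-17). The fold was 3.63 with a 95% interval of 3.31 to 3.97, and 311 tested genes (2.27%) rose at least as much.

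Cxcl3 (ENSMUSG00000029379.11; chr5:90933962-90937459, plus strand), a close relative of Cxcl2, had 1152, 1045, 953 and 1091 CPM in STK11 KO replicates 1 to 4, against 324, 316, 313 and 315 CPM in STK11 WT. The groups did not overlap, and STK11 KO replicate 3 was the lowest of its group. Cxcl3 averaged 1060.0 ± 83.8 CPM in STK11 KO and 317 ± 5.00 CPM in STK11 WT (SD, n = 4 each). Its log2 fold change was 1.74 ± 0.06 (SE; edgeR adjusted p = 9.62e-17), or 3.34-fold with a 95% interval of 3.06 to 3.65, which 359 tested genes (2.62%) matched or passed.

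Cxcl1 (ENSMUSG00000029380.12; chr5:91039100-91040974, plus strand), the KC gene, had 1113, 1064, 939 and 1087 CPM in STK11 KO replicates 1 to 4, against 425, 407, 425 and 389 CPM in STK11 WT. Here too the groups did not overlap and STK11 KO replicate 3 was the lowest of its group. The means were 1051 ± 77.1 CPM in STK11 KO and 411 ± 17.1 CPM in STK11 WT (SD, n = 4 each). The log2 fold change was 1.35 ± 0.06 (SE; edgeR adjusted p = 8.49e-15), or 2.56-fold with a 95% interval of 2.34 to 2.79, and 564 tested genes (4.11%) rose at least as much.

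Cxcl5 (ENSMUSG00000029371.8; chr5:90907219-90909483, plus strand), the LIX gene, rose less than these 4. It had 1762, 1728, 1821 and 1821 CPM in STK11 KO replicates 1 to 4, against 1591, 1606, 1449 and 1542 CPM in STK11 WT. The groups did not overlap, although the lowest STK11 KO library and the highest STK11 WT library were close. Cxcl5 averaged 1783 ± 46.1 CPM in STK11 KO and 1547 ± 70.8 CPM in STK11 WT (SD, n = 4 each). The log2 fold change was 0.20 ± 0.06 (SE; edgeR adjusted p = 0.00329), or 1.15-fold with a 95% interval of 1.06 to 1.25, and 4336 tested genes (31.6%) rose at least as much, close to the background share of rising genes. With library size alone in place of TMM, which shifted the median of all genes by -0.083 and the other 4 members by about as much, the log2 fold change of Cxcl5 was 0.12 (edgeR adjusted p = 0.041).

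Cxcl15 (ENSMUSG00000029375.7; chr5:90942393-90950926, plus strand), the lungkine gene, had raw counts of 1, 0, 1 and 0 in STK11 KO replicates 1 to 4, against 7, 1, 2 and 0 in STK11 WT. The groups overlapped, and the gene did not pass the filter on low counts. The STK11 WT group held 10 counts against 2 in STK11 KO. Relative to TMM-scaled library sizes, the ratio of STK11 WT over STK11 KO was 5.30 with an exact 95% interval of 1.13 to 49.7, which covers counting error only. STK11 WT replicate 1 supplied most of these counts, and without it the STK11 WT group held 3. Fitted with no filter, Cxcl15 had a log2 fold change of -2.14 ± 1.06 (SE; edgeR adjusted p = 0.103), so no difference was detectable at this depth.

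**Figure D1:**
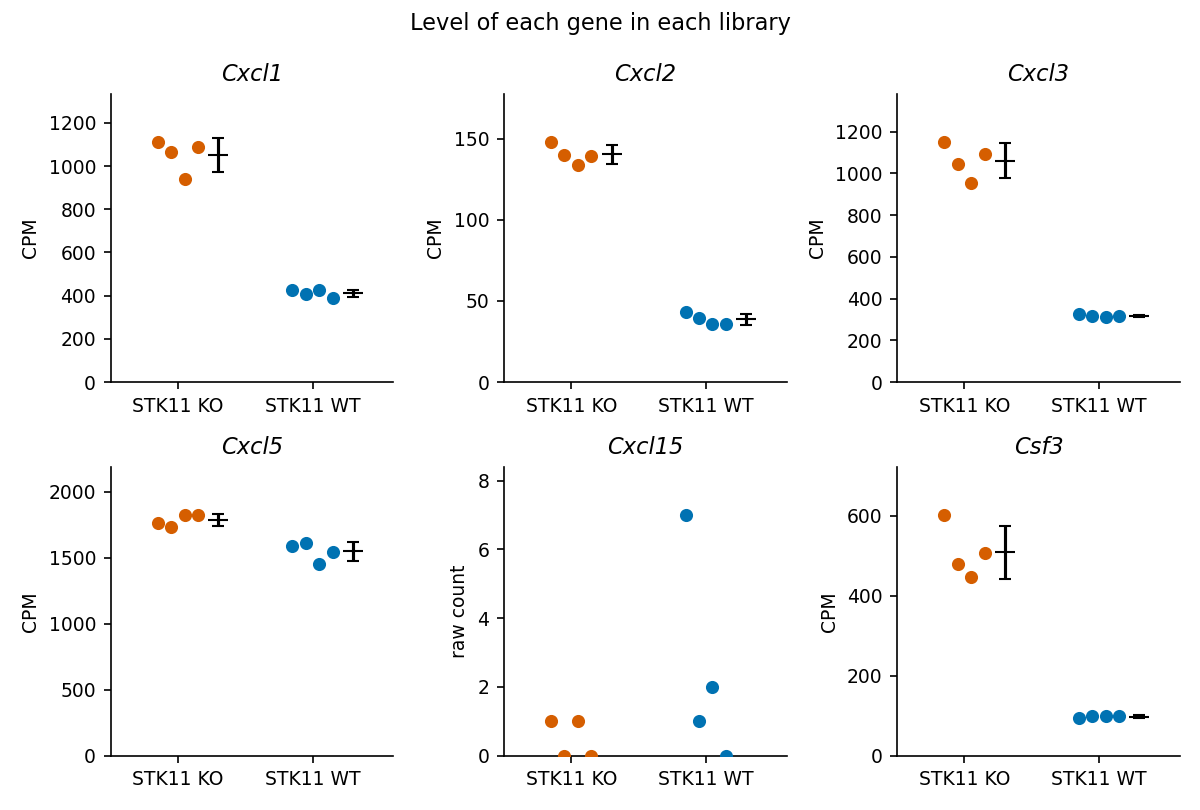
Level of each of the 6 genes in each library, in CPM (raw count for Cxcl15); points are the STK11 KO and STK11 WT libraries in the order of replicates 1 to 4, and the black lines give mean and SD (n = 4 each). For Cxcl1, Cxcl2, Cxcl3, Cxcl5 and Csf3 the 4 STK11 KO libraries lie above the 4 STK11 WT libraries, narrowly so for Cxcl5, and Cxcl15 has at most 7 counts in any library.

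STK11 KO replicate 3 had the lowest level of Cxcl1, Cxcl2, Cxcl3 and Csf3 among the STK11 KO libraries. Without it the log2 fold changes were 1.41 for Cxcl1, 1.88 for Cxcl2, 1.79 for Cxcl3, 0.20 for Cxcl5 and 2.44 for Csf3, and all 5 were still called. Across all tested genes the median log2 fold change was 0.01.

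**Figure D2:**
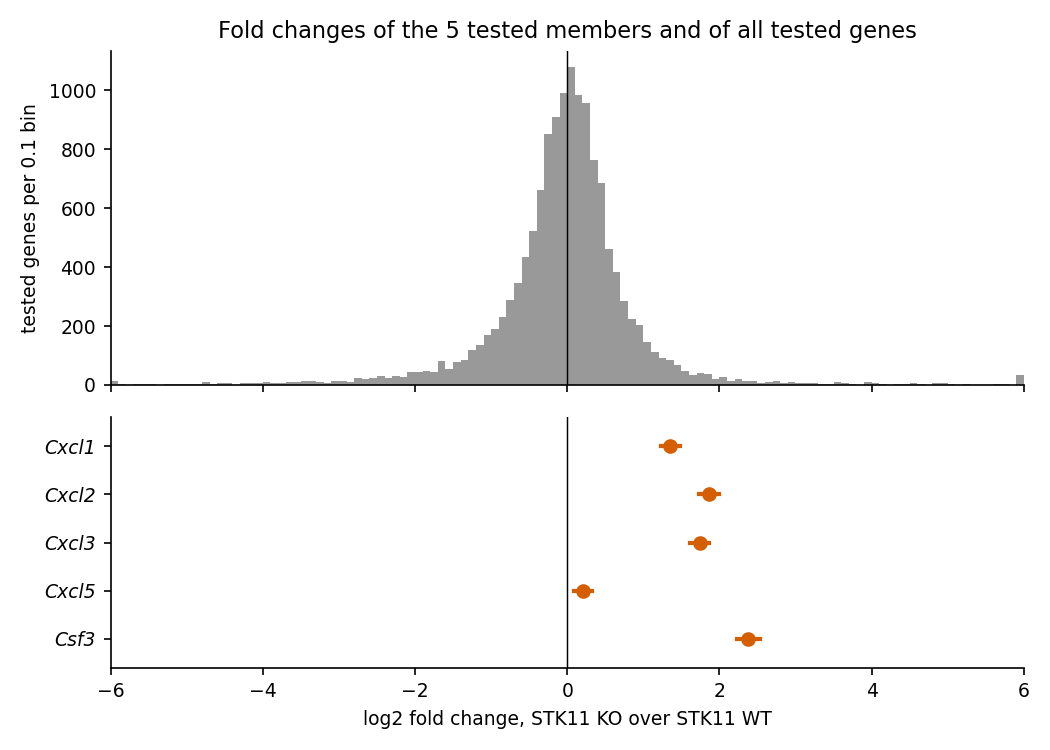
Upper panel, number of tested genes per bin of log2 fold change (STK11 KO over STK11 WT; 13707 genes, those beyond the axis counted in the outermost bins); lower panel, the log2 fold changes of the 5 tested genes, with bars for the 95% interval. Cxcl1 at 1.35, Cxcl3 at 1.74, Cxcl2 at 1.86 and Csf3 at 2.38 lie in the right tail, and Cxcl5 at 0.20 lies within the bulk of genes.

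Per length of transcript, Cxcl5 had the highest mean of the 6 genes in both genotypes, although Cxcl1 lay above it in STK11 KO replicates 1 and 2. In STK11 KO, levels per kb were 1132 ± 29.3 CPM per kb for Cxcl5, 1103 ± 80.9 for Cxcl1, 1043 ± 82.5 for Cxcl3, 360.2 ± 47.3 for Csf3 and 75.5 ± 3.16 for Cxcl2 (SD, n = 4). The means of the first 3 were close. Within libraries, Cxcl1 lay above Cxcl3 in every STK11 KO replicate. Cxcl3 lay above Cxcl5 in STK11 KO replicate 1 only (1133 against 1119 CPM per kb). In STK11 WT the levels per kb were 982 ± 45.0 CPM per kb for Cxcl5, 432 ± 17.9 for Cxcl1, 312 ± 4.93 for Cxcl3, 69.2 ± 2.14 for Csf3 and 20.8 ± 1.86 for Cxcl2 (SD, n = 4), and each step was larger than the spread. Among 13491 tested genes with a known length, Cxcl5 ranked 48 in STK11 KO and 50 in STK11 WT. Cxcl1 ranked 50 in STK11 KO and 121 in STK11 WT, and Cxcl3 ranked 58 in STK11 KO and 173 in STK11 WT. Csf3 was at rank 174 in STK11 KO and 946 in STK11 WT, and Cxcl2 at 961 in STK11 KO and 3428 in STK11 WT. Cxcl5, Cxcl1 and Cxcl3 were therefore among the most abundant transcripts of the STK11 KO cells for their length. Lengths are those of the longest coding transcript in another annotation release, GENCODE vM21.

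Together the 6 genes took 0.441% ± 0.0107 of all counts in STK11 KO and 0.248% ± 0.00654 in STK11 WT (SD, n = 4 each), and their make-up differed. Cxcl5 made up 30.6% ± 2.03 of the summed CPM per kb in STK11 KO and 54.1% ± 1.34 in STK11 WT. Cxcl1 made up 29.7% ± 0.893 in STK11 KO and 23.8% ± 1.09 in STK11 WT, and Cxcl3 made up 28.1% ± 0.759 in STK11 KO and 17.2% ± 0.290 in STK11 WT. Csf3 took 9.67% ± 0.799 in STK11 KO and 3.81% ± 0.207 in STK11 WT, while Cxcl2 took 2.03% ± 0.0474 in STK11 KO and 1.14% ± 0.0734 in STK11 WT. Cxcl5 thus took the majority of the pool in STK11 WT, whereas in STK11 KO it shared the pool about equally with Cxcl1 and Cxcl3.

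**Figure D3:**
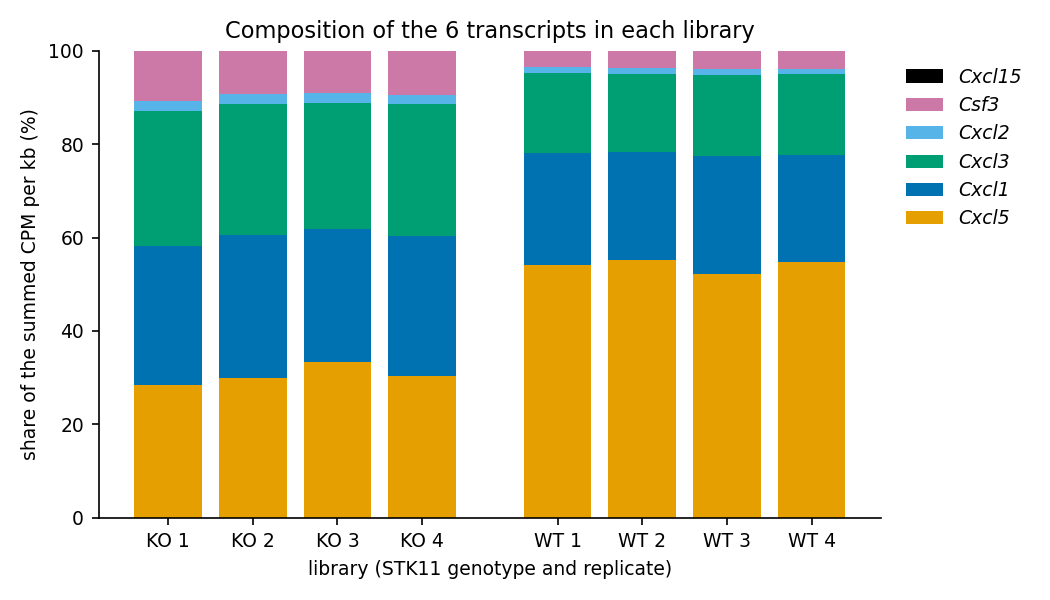
Share of each gene in the summed CPM per kb of the 6 genes, one bar per library, STK11 KO libraries left and STK11 WT libraries right. The Cxcl5 share averages 30.6% in STK11 KO and 54.1% in STK11 WT, and the shares of Cxcl1, Cxcl3, Cxcl2 and Csf3 are larger in STK11 KO; Cxcl15 is too low to be seen.

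Whether the genes changed to the same extent was asked with the ratio of the raw counts of 2 genes within a library, which no scaling can alter. For 9 of the 10 pairs of tested genes the ratios of the STK11 KO libraries did not overlap those of the STK11 WT libraries, each with an exact two-sided permutation p of 0.0286, the smallest possible, and an adjusted p of 0.0317 over the 10 pairs. The same share was not computed for pairs of other genes. It may be high there too, since 34.4% of all tested genes rose and 33.6% fell. The ratio of Csf3 changed against every CXC gene. Cxcl5 to Csf3 was 2.93, 3.60, 4.08 and 3.59 in STK11 KO replicates 1 to 4, against 17.0, 16.3, 14.5 and 15.5 in STK11 WT. The mean ratio of Cxcl1 to Csf3 was 2.07 in STK11 KO and 4.21 in STK11 WT, that of Cxcl3 to Csf3 was 2.09 in STK11 KO and 3.24 in STK11 WT, and that of Cxcl2 to Csf3 was 0.277 in STK11 KO and 0.394 in STK11 WT.

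Against Cxcl5, the ratio of Cxcl2 was 3.15 times as high in STK11 KO as in STK11 WT, that of Cxcl3 2.89 times and that of Cxcl1 2.21 times. Cxcl1 rose less than its neighbours: Cxcl1 to Cxcl3 was 0.992 in STK11 KO and 1.30 in STK11 WT, and Cxcl1 to Cxcl2 was 7.48 in STK11 KO and 10.7 in STK11 WT. The pair whose groups overlapped was Cxcl2 to Cxcl3. Its ratio was 0.129, 0.134, 0.141 and 0.128 in STK11 KO replicates 1 to 4, against 0.133, 0.126, 0.114 and 0.115 in STK11 WT, a difference of 0.13 on the log2 scale (exact permutation test, two-sided p = 0.114). Leaving out each library in turn gave 0.09 to 0.17, all of the same sign, so equal rises of these 2 genes were not shown.

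The 5 CXC genes lie within 147 kb of chromosome 5 (chr5:90907219-91053797, GRCm39), in the order Cxcl5, Cxcl3, Cxcl15, Cxcl1 and Cxcl2, all on the plus strand. This stretch holds 11 annotated genes, of which 6 are not among the 5, and 3 of those 6 had no count in any library. The platelet chemokine genes Ppbp (pro-platelet basic protein, the precursor of NAP-2) and Pf4 (platelet factor 4) sit between Cxcl5 and Cxcl3. Ppbp rose, at 7.48 ± 0.762 CPM in STK11 KO and 1.95 ± 0.210 CPM in STK11 WT (SD, n = 4 each), a log2 fold change of 1.93 ± 0.15 (SE; edgeR adjusted p = 9.84e-11). Pf4 had 13 counts in STK11 KO and 53 in STK11 WT over the 4 libraries of each group and did not pass the filter. It had at most 0.194 CPM in a STK11 KO library and at least 0.417 CPM in a STK11 WT library. Pf4 was called as fallen when fitted with no filter and by limma on the deposited log2 values. High and nearly silent genes thus alternated along the cluster: Cxcl15, between Cxcl3 and Cxcl1, had 12 counts in all 8 libraries.

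**Figure D4:**
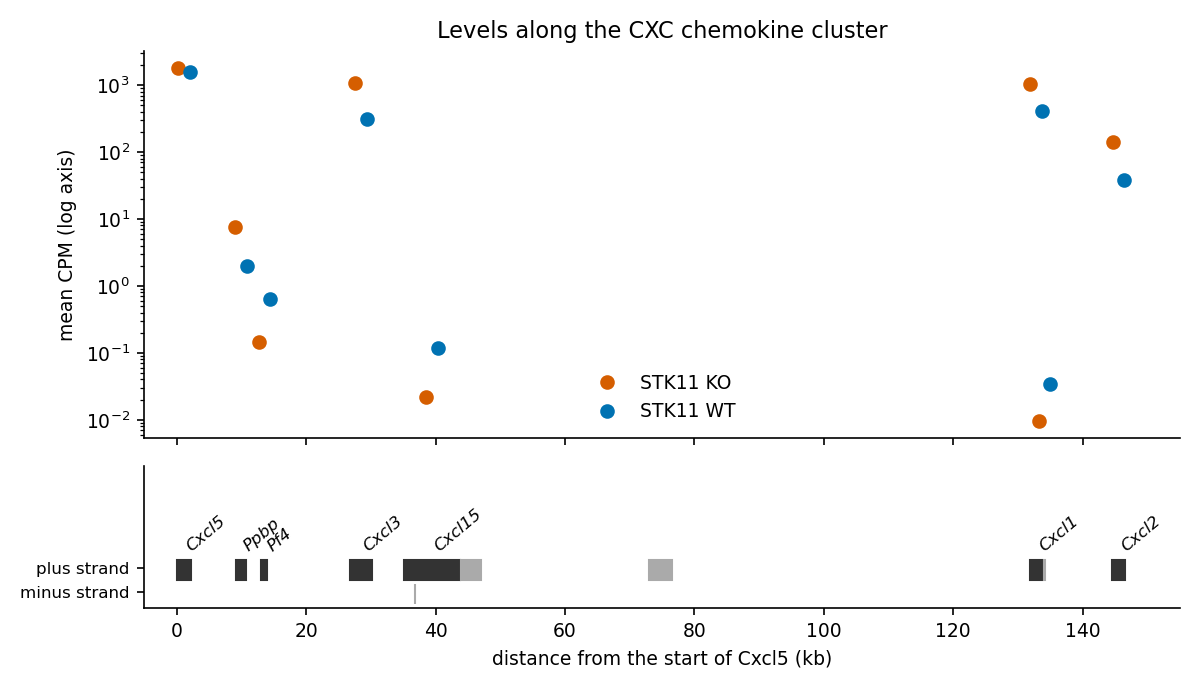
Upper panel, mean CPM of STK11 KO and STK11 WT libraries (log axis) for each gene of the CXC cluster with a count, against distance from the start of Cxcl5 in kb, the points of each gene drawn slightly left and right of its middle; lower panel, extent and strand of the 11 annotated genes, coding genes in black and others in grey. Cxcl5, Cxcl3, Cxcl1 and Cxcl2 stand at 38.6 CPM or more in both genotypes, and Ppbp at 7.48 CPM in STK11 KO and 1.95 CPM in STK11 WT, while Pf4 and Cxcl15 stay below 1 CPM.

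Next to Csf3 on chromosome 11, the proteasome gene Psmd3 fell, with 149 ± 5.16 CPM in STK11 KO and 223 ± 7.50 CPM in STK11 WT (SD, n = 4 each; log2 fold change -0.58 ± 0.05, SE). The genes beyond its other end rose less than Csf3: the Mediator subunit gene Med24 had a log2 fold change of 0.44 ± 0.05 and the thyroid hormone receptor gene Thra of 0.39 ± 0.08 (SE). The largest edgeR adjusted p of these 3 was 0.000204. The remaining 3 neighbours, Gsdma, Gm12356 and Gm22059, had at most 26 counts in either group.

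The stretch just before the start of transcription is shown for Cxcl1, Cxcl2 and Cxcl3, which rose together, and for Cxcl15, their silent neighbour, from RefSeq's promoter table (GRCm38.p6), which matched 4 of the 6 genes. Each is the plus strand, 5′ to 3′, and ends at the base before the annotated start. Capitals mark matches to the NF-kB-type motif GGNNTTTCC on either strand and to the TATA-type motif ATAAAA. The windows are chr5:90891135-90891244 for Cxcl1, chr5:90903789-90903898 for Cxcl2, chr5:90785991-90786100 for Cxcl3 and chr5:90794424-90794533 for Cxcl15.
Cxcl1: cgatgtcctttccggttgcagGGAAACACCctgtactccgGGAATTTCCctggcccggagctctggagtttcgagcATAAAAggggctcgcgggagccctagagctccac
Cxcl2: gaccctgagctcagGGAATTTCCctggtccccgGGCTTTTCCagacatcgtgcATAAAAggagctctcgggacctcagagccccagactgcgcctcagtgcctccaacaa
Cxcl3: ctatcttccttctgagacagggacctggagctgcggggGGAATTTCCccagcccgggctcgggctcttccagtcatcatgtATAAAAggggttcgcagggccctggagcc
Cxcl15: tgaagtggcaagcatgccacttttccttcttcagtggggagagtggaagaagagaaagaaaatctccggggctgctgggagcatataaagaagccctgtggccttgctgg

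In the 250 bases before the start, the longest run of letters that Cxcl1, Cxcl2 and Cxcl3 had in common was the 11-base word GGGAATTTCCC, which began 71, 97 and 73 bases before the start of Cxcl1, Cxcl2 and Cxcl3. It occurred in 14 of 32851 RefSeq promoters of that length (0.0426%), a count that includes these genes. The word was picked because they share it, so its rarity follows in part from that choice. A part of this word in the rises was not tested. GGNNTTTCC, searched on both strands, had 2 matches each in Cxcl1 and Cxcl2, 1 in Cxcl3 and none in Cxcl15, and 4.93% of all promoters held it. ATAAAA had 1 match each in Cxcl1, Cxcl2 and Cxcl3 and none in Cxcl15, with 17% of promoters holding it. The printed Cxcl15 window does hold the TATA-type word TATAAA, which ATAAAA does not match. The search therefore does not show that Cxcl15 lacks a TATA-type sequence. The AP-1-type letters TGANTCA (6.75% of promoters) and the cyclic-AMP response element TGACGTCA (1.55%) were in none of the 4 windows. Its core TGACG (17.8%) matched 2 times in Cxcl1, and TTNNGNAA, a loose C/EBP-type pattern (36.8%), matched 1 time in Cxcl2. These are matches of letters and not measured binding sites.

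The 3′ untranslated regions of the members that rose 2-fold were dense in ATTTA, the core of AU-rich elements. Cxcl1 held 7 in 592 bases, or 1.18 per 100 bases, a density that 0.472% of 19925 annotated genes reached (GENCODE vM21). Csf3 had 0.897 per 100 bases (1.19% of genes), Cxcl3 0.775 (2.1%) and Cxcl2 0.736 (2.51%), against a median of 0.135 over all genes. Cxcl5 had 0.45 per 100 bases, which 9.8% of genes reached, and Cxcl15 had 0.126, which 51.9% reached. By this count Cxcl5 was less dense than the 4 genes that rose more, of which Cxcl1, the densest, rose least. The longer word TATTTAT occurred 6 times in Cxcl1, 7 in Cxcl2, 2 each in Cxcl3 and Csf3, 1 in Cxcl5 and 0 in Cxcl15. Of all genes, 11% held at least 2 and 29% at least 1. Whether these words had a part in the rises was not tested. Related genes share some sequence: of the 51-base words of annotated transcripts, the length of a read, none of Cxcl1 or Csf3, 5.78% of Cxcl2, 4.21% of Cxcl3 and 0.692% of Cxcl5 also occurred in another gene. All shared words of Cxcl2 were shared with Cxcl3, so the levels of that pair carry this uncertainty.

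Genes known to act around these factors were described by lists, which were chosen with earlier results of these data known. Of 22 listed receptors, adaptors and kinases upstream of these genes (the IL-17, IL-1, TNF and Toll-like receptor routes to IkB kinase), all were tested. Of these 5 rose, 9 fell and 8 did not pass. Their median log2 fold change was -0.03. In the same comparison 34.4% of tested genes rose and 33.6% fell. The falls were led by Il17rd, an IL-17 receptor relative, at 4.55 ± 0.459 CPM in STK11 KO and 12.9 ± 1.04 CPM in STK11 WT (SD, n = 4 each; log2 fold change -1.51 ± 0.11, SE). Ikbkg (NEMO, the regulatory subunit of IkB kinase) had a log2 fold change of -0.57 ± 0.05 and Il17ra, the common IL-17 receptor chain, of -0.45 ± 0.08 (SE). The leading risers were Tnfrsf1b, the second TNF receptor, at 0.48 ± 0.06, Traf6, an adaptor ligase, at 0.29 ± 0.06, and Chuk, an IkB kinase subunit, at 0.24 ± 0.06 (log2 fold change, SE). The largest edgeR adjusted p of these 6 was 0.00123. Transcripts of the receptors Tlr2, Tlr3, Tlr4, Il1r1 and Tnfrsf1a and of the adaptor Myd88 were among the 8 that did not pass.

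Of 19 listed transcription factors and IkB proteins, all tested, 14 rose, 3 fell and 2 did not pass. Over all tested genes 34.4% rose and 33.6% fell. The median log2 fold change of the list was 0.62, against 0.01 over all tested genes. Nfkbia, the inhibitor IkB-alpha and itself a target of NF-kB, had 412 ± 37.4 CPM in STK11 KO and 169 ± 1.75 CPM in STK11 WT (SD, n = 4 each; log2 fold change 1.28 ± 0.06, SE; edgeR adjusted p = 1.49e-14). The AP-1 genes Fos and Fosl1 rose by 1.67 ± 0.08 and 0.81 ± 0.06 (log2 fold change, SE). The NF-kB subunit gene Rela did not pass, at 54.2 ± 2.73 CPM in STK11 KO and 54.6 ± 1.64 CPM in STK11 WT (SD, n = 4 each; edgeR adjusted p = 0.881). Nor did Egr1 (edgeR adjusted p = 0.279). The other NF-kB subunit genes rose. Nfkb2 and Relb rose by 0.62 ± 0.05 and 0.62 ± 0.09, and Rel and Nfkb1 by 0.44 ± 0.09 and 0.38 ± 0.06 (log2 fold change, SE). The largest edgeR adjusted p among them was 0.000267. Other genes of the list rose more than these subunits. Atf4 rose by 1.76 ± 0.16, Sp1 by 0.86 ± 0.06, Junb by 0.67 ± 0.06 and Jun by 0.65 ± 0.08 (log2 fold change, SE). The 3 that fell were Cebpa, a differentiation factor with 4.40 ± 0.542 CPM in STK11 KO and 24.3 ± 1.85 CPM in STK11 WT (SD, n = 4 each; log2 fold change -2.47 ± 0.10, SE), its relative Cebpd at -0.62 ± 0.10 and the cytokine-response factor Stat3 at -0.21 ± 0.06 (log2 fold change, SE). Cebpb, another relative of Cebpa, rose, with 108 ± 13.2 CPM in STK11 KO and 62.1 ± 4.13 CPM in STK11 WT (SD, n = 4 each; log2 fold change 0.80 ± 0.07, SE; edgeR adjusted p = 3.02e-09).

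Of 14 listed regulators of mRNA decay and stability, all tested, 7 rose, 3 fell and 4 did not pass. Among all tested genes 34.4% rose and 33.6% fell. The median log2 fold change of these regulators was 0.14. Zfp36l1, a relative of TTP that binds AU-rich elements and promotes decay, fell to 89.3 ± 5.51 CPM in STK11 KO, against 289 ± 12.8 CPM in STK11 WT (SD, n = 4 each; log2 fold change -1.69 ± 0.06, SE; edgeR adjusted p = 4.55e-17). The decay factors Khsrp and Hnrnpd fell by less, at -0.35 ± 0.05 and -0.22 ± 0.07 (log2 fold change, SE), and the Hnrnpd libraries overlapped between groups. The TTP gene itself, Zfp36, rose by 0.50 ± 0.15 (log2 fold change, SE; edgeR adjusted p = 0.0094), with libraries that overlapped between groups. Its relative Zfp36l2 did not pass, at 509 ± 50.9 CPM in STK11 KO and 547 ± 31.6 CPM in STK11 WT (SD, n = 4 each; edgeR adjusted p = 0.159). Arid5a, which stabilises inflammatory transcripts, had 33.4 ± 4.58 CPM in STK11 KO and 9.05 ± 0.823 CPM in STK11 WT (SD, n = 4 each; log2 fold change 1.89 ± 0.10, SE). The deadenylase subunit gene Cnot7 and the endonuclease gene Zc3h12a rose by 0.80 ± 0.05 and 0.62 ± 0.06 (log2 fold change, SE), so the list held promoters of decay in both directions. The count of falls in this list was 5 without STK11 KO replicate 1 and 6 with library size alone as the scaling.

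Of 16 other secreted or locally made factors that act on neutrophils, 15 were matched by symbol and 10 tested. Of these 7 rose, 1 fell and 2 did not pass, beside 34.4% of all tested genes that rose and 33.6% that fell. The median of the tested factors stood at 0.88 on the log2 scale. Lcn2, an iron-siderophore binding protein of neutrophil granules and inflamed epithelium, had 872 ± 91.5 CPM in STK11 KO and 324 ± 18.0 CPM in STK11 WT (SD, n = 4 each; log2 fold change 1.43 ± 0.07, SE). The complement gene C3 and Anxa1, which restrains neutrophil entry, had log2 fold changes of 1.51 ± 0.07 and 0.77 ± 0.07 (SE). The 1 that fell was Csf2, the gene of the growth factor GM-CSF, at 5.80 ± 0.607 CPM in STK11 KO and 33.8 ± 2.36 CPM in STK11 WT (SD, n = 4 each; log2 fold change -2.55 ± 0.09, SE; edgeR adjusted p = 2.00e-16). Csf2 and Csf3, which both encode colony-stimulating factors, thus moved in opposite directions. Of the inducers in this list, Il1a rose, with 10.9 ± 2.55 CPM in STK11 KO and 5.39 ± 0.675 CPM in STK11 WT (SD, n = 4 each; log2 fold change 0.99 ± 0.16, SE; edgeR adjusted p = 1.12e-05). Il1b and Tnf did not pass the filter on low counts, with means of at most 0.187 CPM in either group. Cxcl12 had no count in any library.

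Of 11 listed proteases that can cut CXC chemokines, 4 were tested and all 4 rose, with a median log2 fold change of 0.69. The share that rose over all tested genes was 34.4%. The collagenase gene Mmp13 had 259 ± 12.5 CPM in STK11 KO and 48.8 ± 2.83 CPM in STK11 WT (SD, n = 4 each; log2 fold change 2.41 ± 0.06, SE; edgeR adjusted p = 1.50e-19). Mmp9, a gelatinase, Mmp14, a membrane-bound matrix protease, and Ctsc, which activates neutrophil serine proteases, had log2 fold changes of 0.81 ± 0.18, 0.57 ± 0.06 and 0.22 ± 0.05 (SE; largest edgeR adjusted p 0.00123).

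**Figure D5:**
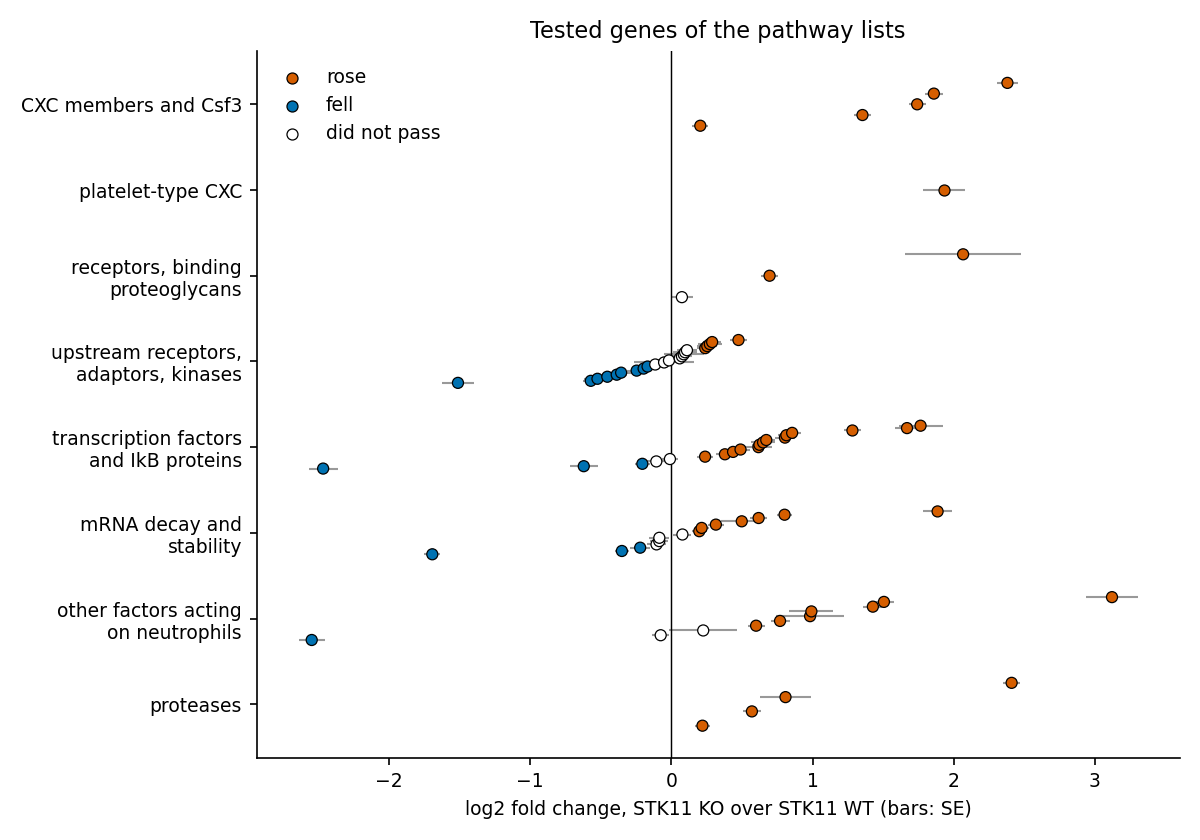
Log2 fold change (STK11 KO over STK11 WT) of each tested gene in the lists, with bars for the SE; filled points passed at an edgeR adjusted p under 0.05. Of the 19 transcription factors and IkB proteins 14 rose, of the 22 upstream receptors, adaptors and kinases 9 fell and 5 rose, and all 4 tested proteases rose. Over all tested genes 34.4% rose and 33.6% fell.

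On the receiving side, the cells had little of the receptors for these factors. Csf3r, the G-CSF receptor gene, and the scavenging receptor gene Ackr1 had no count in any library, and Cxcr1 had 5 counts in STK11 KO and none in STK11 WT. Cxcr2, the receptor gene for the CXC members, was near the limit of detection and rose, at 1.14 ± 0.429 CPM in STK11 KO and 0.258 ± 0.144 CPM in STK11 WT (SD, n = 4 each; log2 fold change 2.07 ± 0.41, SE; edgeR adjusted p = 0.000128). Of the proteoglycans that bind CXC chemokines, Sdc4 rose, with 600.4 ± 58.8 CPM in STK11 KO and 371 ± 2.24 CPM in STK11 WT (SD, n = 4 each; log2 fold change 0.70 ± 0.06, SE). Sdc1 did not pass, at 1020.3 ± 149 CPM in STK11 KO and 969 ± 40.4 CPM in STK11 WT (SD, n = 4 each; edgeR adjusted p = 0.407). Without STK11 KO replicate 3, the library that stood apart, 3 genes of this list rose in place of 2, and the falls numbered 10 in place of 9 among upstream receptors, adaptors and kinases, 4 in place of 3 among transcription factors and IkB proteins, and 4 in place of 3 among regulators of mRNA decay.

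Markers of other cell types were measured beside these results. Of 12 neutrophil markers 2 were tested, Ly6g, which fell, and Cxcr2, which rose, and the defining genes Mpo, Elane, Retnlg and Csf3r had no count; the 12 summed to 3.85 to 5.47 CPM in STK11 KO and 7.42 to 9.53 CPM in STK11 WT. The 10 markers of macrophages and other leukocytes summed to 578 to 613 CPM in STK11 KO and 280.2 to 301 CPM in STK11 WT, nearly all of it from Mrc1, a mannose receptor gene that rose, while Adgre1, C1qa and C1qb had no count. The 8 fibroblast markers summed to at most 3.07 CPM in STK11 KO and 5.72 CPM in STK11 WT, and the 6 endothelial markers to at most 5.00 CPM in STK11 KO and 3.66 CPM in STK11 WT. Col1a2, Lum and Thy1 of the fibroblast list and Kdr and Cldn5 of the endothelial list were at 0. The tested endothelial markers went opposite ways: Cdh5 rose, at 4.17 ± 0.624 CPM in STK11 KO and 1.36 ± 0.327 CPM in STK11 WT, and Vwf fell, at 0.125 ± 0.0624 CPM in STK11 KO and 1.56 ± 0.496 CPM in STK11 WT (SD, n = 4 each). Both tested fibroblast markers fell: Col1a1 had 2.32 ± 0.411 CPM in STK11 KO and 3.68 ± 0.609 CPM in STK11 WT, and Col3a1 had 0.0345 ± 0.0468 CPM in STK11 KO and 0.883 ± 0.0804 CPM in STK11 WT (SD, n = 4 each). The largest edgeR adjusted p of these 4 was 0.00178, and their part in the results was not tested. Of 8 general epithelial markers 6 were tested, of which 1 rose, 3 fell and 2 did not pass, beside 34.4% and 33.6% of all tested genes that rose and fell. The 8 summed to 8010 to 8961 CPM in STK11 KO and 9309 to 9795 CPM in STK11 WT. The 8 lung epithelial markers summed to at most 1.91 CPM in either group, with Sftpc and Sftpa1 at 0, so the cells carried epithelial transcripts and almost none that mark differentiated lung epithelium.

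Across the 8 libraries, the genes whose log2 CPM profile lay closest to that of each member were found among 12273 tested genes of at least 1 CPM, by the root mean square difference of centred profiles. For Cxcl1 they included Mphosph6 (0.0489) and Nampt (0.0513). For Cxcl2 they were Flrt3 (0.0677), Il13ra1 (0.0844) and Bnip3 (0.0904), and for Cxcl3 they were Bnip3 (0.0589), Misp (0.0590) and Arap3 (0.0712). Rab21 (0.0182), Serinc1 (0.0252) and Clptm1l (0.0265) lay closest to Cxcl5, and Me2 (0.113), Itgb3 (0.115) and Selenbp1 (0.116) to Csf3. Among these 3 nearest genes per member, Bnip3 appeared for both Cxcl2 and Cxcl3. The profiles include the step between genotypes, so a close gene also had a like fold change. Nampt had a log2 fold change of 1.31 and Cxcl1 of 1.35, and Rab21 had 0.22 and Cxcl5 0.20. Whether any of these genes share regulation was not tested.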

How the data were processed

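Libraries of 4 STK11 KO and 4 STK11 WT cultures were made with a stranded mRNA kit, per the labels' protocols. GRCm39, STAR 2.7.9a, featureCounts 1.6.0, FastQC 0.11.8, limma and edgeR are named in the submitters' processing notes. How strand and multiply mapping reads were handled in counting is stated in none of the sources used here. The authors deposited raw counts for 56884 genes, and a second table with log2 CPM of 15726 genes in voom's form, used only as an alternative.

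Counts were tested with edgeR 4.0.16 (robust glmQLFit, glmQLFTest; genotype as the only term, TMM, filterByExpr), with Benjamini-Hochberg adjustment over 13707 genes and calls at 0.05. Genes that passed are said to have risen or fallen. The SE is the absolute log2 fold change over the square root of F. CPM values are counts over TMM-scaled library sizes, as mean ± SD. P-values set differences between the groups against the spread between these libraries and do not cover differences between separately made knockout lines. The counting interval of Cxcl15 is an exact (Clopper-Pearson) one. Ratios of counts had 0.5 added to each count and were compared over all 70 assignments of libraries.

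The genes and lists were chosen with earlier results of these data known. Named in each list are, by smallest adjusted p, at most 3 that rose and 3 that fell, and all tested genes where 5 or fewer were tested. Egr1, the NF-kB subunit genes, Atf4, Sp1, Junb, Jun, Cebpb, Zfp36, Zfp36l2 and the 6 receptors and adaptors that did not pass were named after their values were seen. So were Il1a, Il1b, Tnf, Cxcl12 and the tested fibroblast and endothelial markers. Of the genes closest in profile to Cxcl1, 1 is not reported here. Lengths, 3′ untranslated regions and shared words came from GENCODE vM21, matched by gene ID, and promoters from RefSeq. Of the tested genes 98.4% had a length. Alternatives were other scalings, filters and tests (DESeq2 1.42.0, limma 3.58.1), the replicate number as a block, and leaving out each library. R 4.3.3 and Python 3.11.15 were used.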

Additional observations from a re-analysis of the deposited data

Results flagged for a closer look

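The ratio of Cxcl3 to Csf3 counts in STK11 KO replicate 1 was 1.91, away from the other STK11 KO libraries, of which the nearest had 2.14. The gap was 0.850 of the range of the 4 libraries, above Dixon's 95% value of 0.829. It was the only 1 of 34 groups of values examined, and chance alone picks out about 1 in 20. Csf3 was highest in this library, at 602 CPM. Without it the difference of the log2 ratio between STK11 KO and STK11 WT was -0.59, against -0.63 with all 8 libraries.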

How the results depend on the processing

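The 5 tested members kept their direction and their call in all 18 alternatives. Log2 fold changes ran from 1.27 to 1.41 for Cxcl1, 1.77 to 1.91 for Cxcl2, 1.66 to 1.79 for Cxcl3, 0.12 to 0.22 for Cxcl5 and 2.29 to 2.44 for Csf3, and that of Stk11 from -1.02 to -0.91. The highest adjusted p for Cxcl5 was 0.041, with library size alone, which moved the median of all genes by -0.083 on the log2 scale. The genes called in either direction numbered 9322, and 8722 to 10335 in the alternatives. Of 252 recounts of the lists, 246 stayed within 1.5 times. Replicate numbers did not pair the libraries (correlations of same-numbered deviations 0.0356, 0.00513, -0.0985 and 0.00422). With the replicate number as a block 9182 genes were called and Cxcl5 stood at 0.21 (edgeR adjusted p = 0.00879). The paired sign-flip test of the count ratios called 0 pairs in place of 9, since its smallest possible p is 0.125 (exact). Adding 1 count in place of 0.5 left 9. Depth limits Cxcl15, Pf4 and Cxcr2, for which 1 count is up to 0.0515 CPM.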
